A study of Rattus norvegicus with 60 samples.

Results

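The response of a bled joint was set against the response of the lymph node that drains it, within the same animals. In each of 11 haemophilia A rats, whose blood clots poorly for want of factor VIII, the bled knee was compared with the contralateral knee, and the popliteal node of the bled side with that of the other side. The first difference is called here the side effect in the knee, the second the side effect in the node, and the knee value minus the node value was taken rat by rat. These rats, numbered K1 to K11, gave 44 of the series' 60 arrays, 1 per tissue and side. The groups were the bled knee, the contralateral knee, the node of the bled side and the contralateral node, with 11 arrays each, all taken 24 h after a knee bleed had been induced. All 4 groups shared the haemophilia A genotype; of strain, age and allele the sources used here say nothing. The bled side was the left in every rat, so bled against contralateral and left against right cannot be told apart, and each difference compares an injured joint with the other joint of an animal that had bled. The other 16 arrays came from rats with a sham procedure and entered 1 alternative fit only.

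Blood in a joint brings red cells, haem and iron to the synovium, the membrane that lines the joint with macrophages and fibroblasts over a bed of vessels and fat. The synovium answers such an insult with cytokines, chemokines that call in neutrophils and monocytes, enzymes that digest matrix, and, in time, growth of the lining. The popliteal node receives lymph from the lower hind limb; it is a lymphocyte-rich organ held up by a stroma of reticular cells and vessels and embedded in fat.

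Values are log2 expression from the array and a call means an adjusted p under 0.05 in limma's moderated test over all 36685 probe sets, with Benjamini-Hochberg adjustment. Array medians lay between 5.64 and 5.8, and each array correlated with the rest of its group at a median of at least 0.977. Tissue markers followed the labels. The B cell gene Ms4a1 averaged 5.41 in bled and 5.22 in contralateral knees, against 11.36 in nodes of the bled side and 11.33 in contralateral nodes. Prg4, the lubricin of the joint lining, averaged 13.15 in bled and 13.20 in contralateral knees, against 8.59 and 8.61 in the nodes. Knees also held muscle and fat. The mean of 25 skeletal muscle genes ranged from 5.73 to 11.27 over the bled knees and from 5.96 to 11.42 over the contralateral knees, and that of 27 adipocyte genes from 7.79 to 8.94 and from 10.15 to 10.64. In the nodes the adipocyte mean ranged from 7.11 to 8.39 on the bled side and from 7.91 to 8.46 on the other.

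In the knee 13818 probe sets were called, 37.7% of those tested, 7606 higher (20.7%) and 6212 lower (16.9%) on the bled side. In the node none was called (0%); the smallest adjusted p in limma was 0.65, and 2150 probe sets (5.86%) had an unadjusted p under 0.05. The knee effect exceeded the node effect in 6272 probe sets (17.1%) and lay below it in 5090 (13.9%), 31% of those tested in all. Of the 13818 probe sets called in the knee, 10965 (79.4%) were also called in the difference of side effects, and they made up 96.5% of the 11362 calls in that difference. Precision did not favour the knee. The median half-width of the 95% interval was 0.185 for the knee effect, 0.144 for the node effect and 0.239 for their difference; the number of arrays limits this precision. The absence of node calls does not show that the nodes of the 2 sides were alike.

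Among the 2520 probe sets called in the knee at 2-fold or more (6.87% of those tested), the median size of the change was 1.41 on the log2 scale in the knee and 0.06 in the node. The difference of side effects was called for 2502 of them (99.3%), and 2250 (89.3%) were called with all 11 rats in the same direction. Over all probe sets the 11 rats took 1 direction in 18.2% for the difference, 23% for the knee and 0.0927% for the node. A probe set of the 2520 was counted as limited to the joint where the difference was called and the unadjusted 95% interval of the node effect lay within 0.5 either side of 0. This held for 2399 of the 2520 (95.2%), which are 6.54% of all probe sets, 1150 of 1203 higher and 1249 of 1317 lower in the bled knee. An interval within that bound was common, in 34686 of all probe sets (94.6%), and the share limited to the joint lies near that background. Of the 2399, 1997 (83.2%) had a node level above the median of all probe sets, 5.74, so most were not dim in the node. Just within the bound lay Ndrg2, Pln and Sncg, with node intervals reaching −0.49, −0.50 and −0.50. Just past it lay Mt1f, Retnlg and Scara5, reaching 0.50, 0.51 and −0.50.

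**Figure D1:**
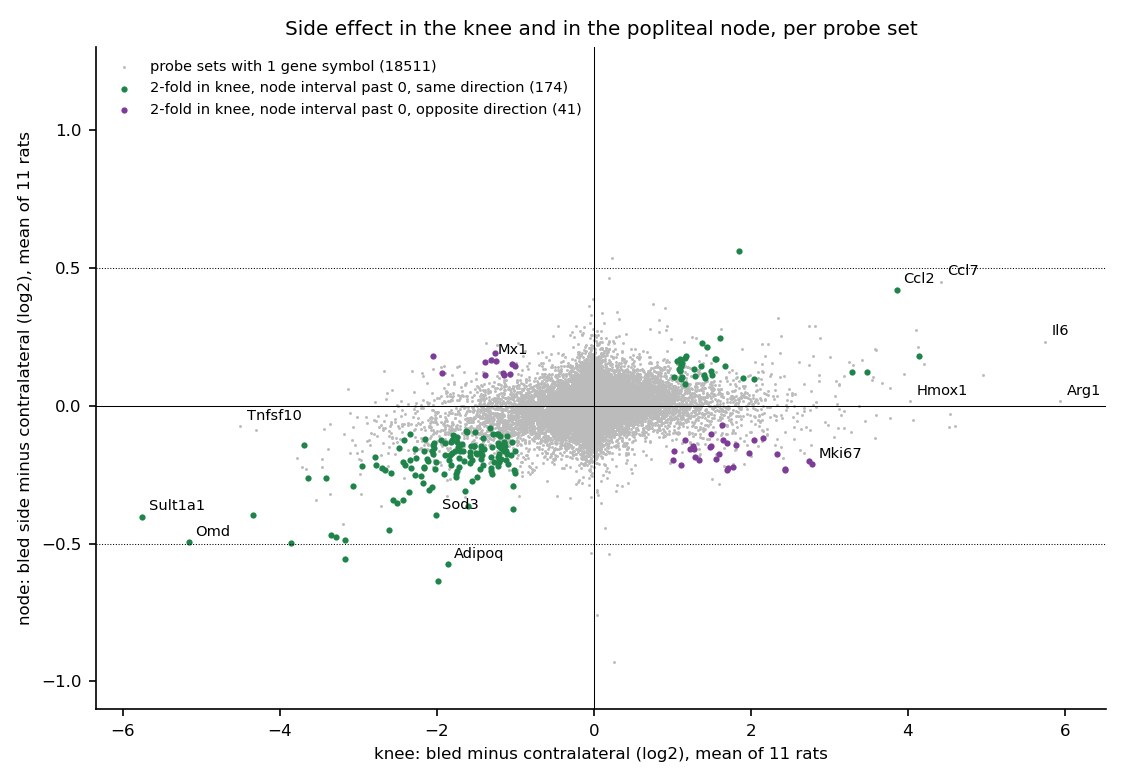
Side effect in the knee (x axis, bled minus contralateral) against side effect in the node (y axis, bled side minus contralateral), both as log2 means over 11 rats, for the 18511 probe sets with 1 gene symbol; dotted lines mark 0.5 either side of 0. The knee axis spans nearly 6 log2 units each way and the node cloud stays mostly within the dotted lines; green and purple points are described in the text as leaning the same way and the opposite way.

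Arg1, the arginase that turns arginine into ornithine, had the largest difference of side effects. It ranged from 10.54 to 11.98 (median 11.10) in bled knees, against 4.95 to 5.47 (median 5.27) in contralateral knees. In the nodes it ranged from 4.61 to 5.43 (median 4.90) on the bled side, against 4.49 to 5.30 (median 4.97) on the other. The 2 knee groups lay far apart and the 2 node groups covered the same low range. The knee effect exceeded the node effect by 5.93 ± 0.22 (SE, n = 11; limma adjusted p = 4.3e-09), and by 4.80 to 6.90 in single rats.

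Il6, a cytokine of acute inflammation, ranged from 10.09 to 11.65 (median 10.65) in bled knees, against 4.54 to 6.34 (median 4.90) in contralateral knees. Node values ran from 5.79 to 7.61 (median 6.13) on the bled side, against 5.77 to 7.58 (median 6.06) on the other. The bled knees were 53.9-fold higher, and in the node 6 rats were higher and 5 lower on the bled side. The difference of side effects was 5.52 ± 0.27 (limma adjusted p = 2.1e-08). Il1b, another early cytokine, had side effects of 3.19 in the knee and 0.11 in the node (difference 3.08 ± 0.24). Tnf had small ones, 0.36 in the knee and −0.06 in the node (difference 0.42 ± 0.11, limma adjusted p = 0.008; the call was lost with the adipocyte genes of the node as covariate).

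Hmox1, which breaks down haem, ranged from 11.60 to 12.42 (median 12.26) in bled knees, against 7.84 to 8.75 (median 8.13) in contralateral knees. Across the nodes it spanned 7.99 to 11.75 (median 10.48) on the bled side, against 8.26 to 11.23 (median 10.08) on the other. The node thus held much Hmox1 RNA with a wide spread between rats on both sides, and its side effect was 0.02 (95% interval −0.34 to 0.38), against 4.03 in the knee. The difference was 4.01 ± 0.14 (limma adjusted p = 4.3e-09). Slc11a1, an iron transporter of phagocytes, had side effects of 2.68 in the knee and 0.08 in the node, and Slc40a1, the iron exporter ferroportin, of −1.29 and −0.03. Of 28 measured genes of haem and iron handling, 12 had a higher and 5 a lower knee effect than node effect; over all genes with 1 probe set each these shares were 23.8% and 21.4%.

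Slpi, an inhibitor of leukocyte proteases, was high in the nodes of both sides. It ranged from 10.66 to 11.97 (median 11.26) in bled knees, against 6.02 to 7.56 (median 6.63) in contralateral knees. The nodes ranged from 10.82 to 11.90 (median 11.28) on the bled side, against 10.77 to 11.94 (median 11.50) on the other. Bled knees covered the range of the nodes, contralateral knees lay below it, and the node interval included 0 (−0.08, 95% interval −0.19 to 0.03). The difference of side effects was 4.60 ± 0.16 (limma adjusted p = 4.3e-09). Fgf23, a hormone of phosphate balance, had a node level that spread from 7.89 to 12.14 on the bled side and from 8.17 to 10.69 on the other. Its side effects were 4.96 in the knee and 0.11 in the node (95% interval −0.48 to 0.70), and the difference was 4.85 ± 0.33. The rest of the 12 genes with the largest excess in the knee were Mmp13, a collagenase, Clec4a2, a lectin receptor of myeloid cells, Adam8, a protease of leukocytes, the chemokines Ccl20, Ccl7 and Cxcl2, and Ptx3, a pentraxin. Their differences ran from 3.91 (Ptx3) to 4.67 (Mmp13), with every rat above 0 for each.

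**Figure D2:**
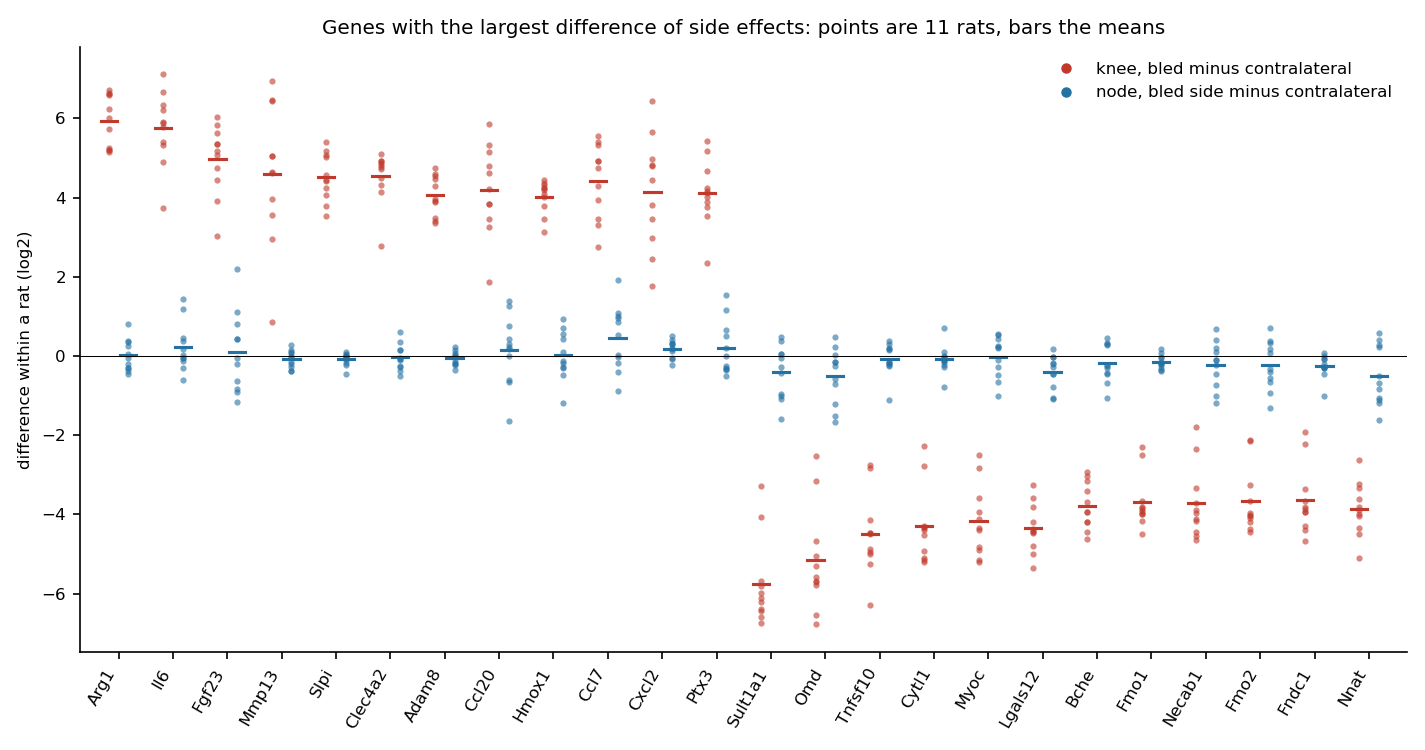
Differences within a rat (y axis, log2) in the knee (red, left of each pair) and in the node (blue, right) for the 12 genes with the largest difference of side effects each way; points are 11 rats and bars their means. All knee points of a gene lie on 1 side of 0, from 7.11 (Il6) to −6.77 (Omd), and the node points lie on both sides of 0.

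Sult1a1, a sulfotransferase, led the genes lower in the bled knee. It ranged from 5.14 to 7.91 (median 5.49) in bled knees, against 10.90 to 12.29 (median 11.62) in contralateral knees. In the nodes it ranged from 8.07 to 10.47 (median 9.36) on the bled side, against 8.82 to 10.61 (median 9.95) on the other. The knee groups did not overlap and the node groups did, with 7 of 11 rats lower on the bled side. The difference of side effects was −5.35 ± 0.26 (limma adjusted p = 1.9e-08). Omd, the matrix protein osteomodulin, ranged from 3.67 to 6.78 in bled knees, against 8.77 to 10.60 in contralateral knees, and its difference was −4.66 ± 0.30. Tnfsf10, which encodes the death ligand TRAIL, ranged from 4.15 to 7.08 in bled knees, against 9.84 to 10.56 in contralateral knees. Node values ran from 8.67 to 10.23 on the bled side, against 9.02 to 10.07 on the other, and its difference of side effects was −4.43 ± 0.27. The other nine, Cytl1, Myoc, the fat galectin Lgals12, the cholinesterase Bche, the flavin monooxygenases Fmo1 and Fmo2, Necab1, Fndc1 and Nnat, had differences from −3.37 (Nnat) to −4.21 (Cytl1). For Nnat a second probe set gave a smaller difference, −1.52. Its node effect was −0.02 (95% interval −0.20 to 0.16), against −0.50 for the probe set used. In bulk tissue, fewer cells of a type and less RNA per cell cannot be told apart.

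Chemokines were called in both directions in the knee. Of 32 measured, 16 were called higher and 6 lower in the bled knee (27.1% and 24.7% of all genes, 1 probe set each), none in the node, and 15 and 5 in the difference. Ccl7, which draws monocytes, ranged from 11.64 to 12.18 (median 11.81) in bled knees, against 6.30 to 9.04 (median 7.25) in contralateral knees. Across the nodes it spanned 7.65 to 10.06 (median 8.57) on the bled side, against 7.37 to 9.04 (median 8.13) on the other. Its node effect was 0.45 (95% interval −0.03 to 0.92), with 7 rats higher and 4 lower, from −0.88 in K4 to 1.92 in K11, and the difference of side effects was 3.97 ± 0.24. Cxcl12, which retains leukocytes in tissue, and Cx3cl1 were lower in the bled knee, with differences of −1.74 ± 0.14 and −2.12 ± 0.16.

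The promoters of Il6 and Ccl7 are shown because both genes rose in every bled knee and each window holds GGGA and TTCC with 2 bases of any kind between them, a form of the NF-kB motif. Windows run from 250 bases before to 50 after the gene start, come from RefSeq on build GRCr8 and were searched on both strands; capitals mark the match, which overlapped none of the other motifs searched. Of all 33469 promoter windows 1.3% held it, and 5 of 25 chemokines with a window did (20%). A match is a description of letters and does not mark a bound site. Il6 lies at chr4:5894526-5894825 on the minus strand and Ccl7 at chr10:67513845-67514144 on the plus strand.
Il6: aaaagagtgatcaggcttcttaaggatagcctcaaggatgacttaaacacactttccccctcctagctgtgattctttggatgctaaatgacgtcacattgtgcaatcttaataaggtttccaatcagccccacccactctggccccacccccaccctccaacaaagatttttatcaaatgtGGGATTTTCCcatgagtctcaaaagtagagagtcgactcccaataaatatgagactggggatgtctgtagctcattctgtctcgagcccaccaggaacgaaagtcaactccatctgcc
Ccl7: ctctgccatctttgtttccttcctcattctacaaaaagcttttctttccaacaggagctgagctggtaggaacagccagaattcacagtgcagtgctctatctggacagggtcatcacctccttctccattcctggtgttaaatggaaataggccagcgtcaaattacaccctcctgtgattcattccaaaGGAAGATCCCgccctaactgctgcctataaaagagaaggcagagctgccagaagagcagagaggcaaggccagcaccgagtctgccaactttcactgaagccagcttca

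Most markers of neutrophils were higher in the bled knee, and their node effects were small. Of 22 measured, 15 were called higher and 1 lower in the difference of side effects, against 23.8% and 21.4% of all genes. The median node effect was −0.05, with 7 members above and 15 below 0, against 50.4% and 49.6% of all genes. By rat, the list mean of the node was above 0 in 5 and below 0 in 6. S100a8, an alarmin of neutrophils, had side effects of 3.78 in the knee and −0.05 in the node, and Csf3r, the receptor of granulocyte growth factor, of 3.19 and −0.08. Rat K10 stood apart, with a knee difference of −0.98 for S100a8 and a neutrophil mean that was 0.53 lower in its bled knee, against 1.09 to 2.59 higher in the knees of the other 10 rats. Without K10 the difference of side effects was 4.28 ± 1.16 for S100a8 (SD, n = 10), against 3.82 over all 11 rats. Of 29 macrophage markers 17 had a higher and 9 a lower knee effect, against the same 23.8% and 21.4% of all genes. C1qa and Vsig4, both of resident macrophages, had differences of −1.37 ± 0.10 and −1.97 ± 0.30. Other markers of such cells had knee effects above 0, 0.50 for Cd163 and 0.85 for Mrc1, with node effects of −0.06 and −0.01.

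Lymphocyte markers separated the tissues by level as well. The mean of 24 T cell markers ranged from 7.07 to 7.70 over bled knees, against 6.18 to 6.77 over contralateral knees, and from 9.60 to 10.19 over nodes of the bled side, against 9.60 to 10.11 over the other nodes. The difference of side effects was called higher for 21 and lower for 2 of the 24, against 23.8% and 21.4% of all genes. Cd2, an adhesion receptor of T cells, had side effects of 3.54 in the knee and 0.09 in the node, and Cd8b, a chain of the CD8 coreceptor, of 2.53 and 0.04; Cd4, which macrophages of rats also carry, had −0.95 and −0.04. Cxcl13, the chemokine of B cell follicles, was lower in the bled knee (−1.19) and differed little in the node (0.06, 95% interval −0.06 to 0.18). Of 17 plasma cell genes 15 had a node effect below 0, against 49.6% of all genes, with a median of −0.10 and no call. Their mean in the node was below 0 in 7 rats and above 0 in 4. In the bled knee 11 of the 17 genes were called higher and 1 lower, against 27.1% and 24.7% of all genes. Jchain, which joins secreted antibodies, had side effects of 1.70 in the knee, where K10 alone was lower (−2.27), and −0.10 in the node. Other markers of these cells varied, with knee effects of 1.84 for Sdc1, 0.56 for Derl3, −0.04 for Mzb1 and −0.05 for Tnfrsf17.

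**Figure D3:**
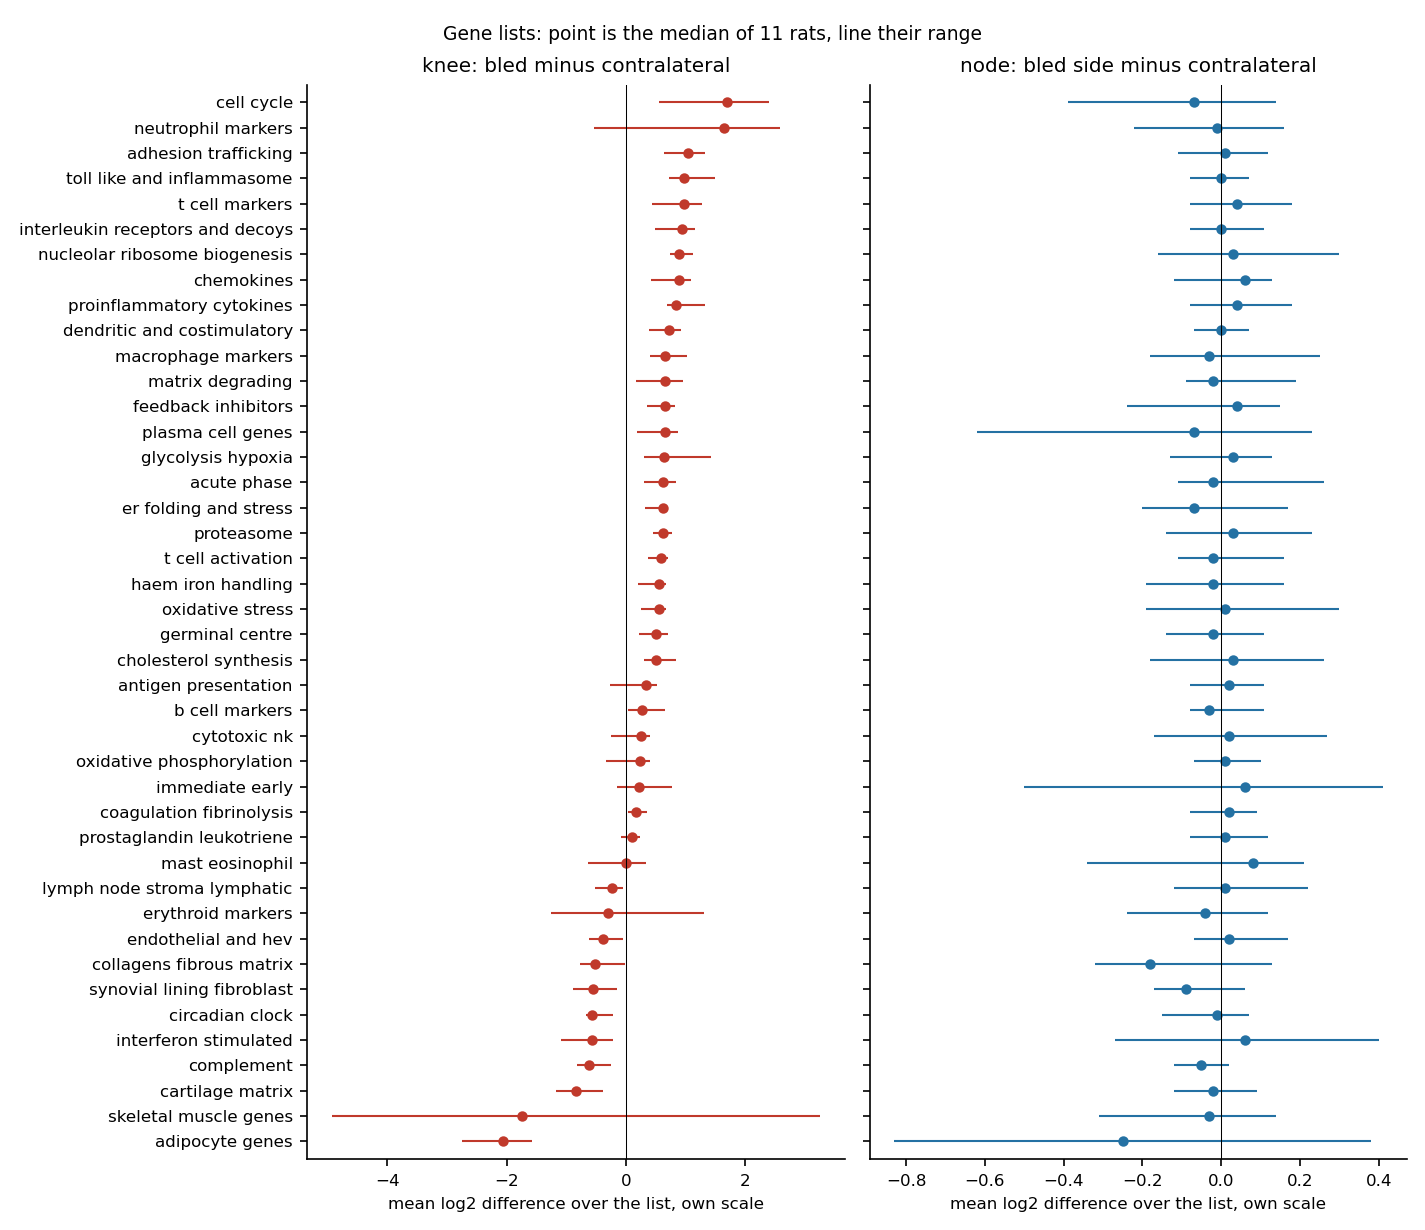
Mean log2 difference of each gene list in the knee (red, left panel, bled minus contralateral) and in the node (blue, right panel, bled side minus contralateral); points are medians of 11 rats, lines their range, and the x scales differ. In the knee 33 of the 42 lists keep 1 sign in all 11 rats, such as cell cycle (0.55 to 2.41) and adipocyte genes (−2.75 to −1.58); in the node no list does.

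Receptors that sense microbes and damage, and receptors of cytokines, were mostly higher in the bled knee, with no call in the node. Over all genes 23.8% had a higher and 21.4% a lower knee effect than node effect. Of 25 genes of toll-like receptors and inflammasomes 18 had a higher and 3 a lower knee effect than node effect, and all 11 that changed at least 2-fold in the knee were limited to the joint, near the 95.2% of all such probe sets. Tlr1, a receptor for bacterial lipoproteins, had side effects of 3.13 in the knee and −0.01 in the node (difference 3.14 ± 0.18), and Tlr3, a sensor of double-stranded RNA, of −0.80 and −0.10. Of 22 interleukin receptors and decoys 18 had a higher and 2 a lower knee effect. Il1rn, the natural antagonist of interleukin 1, had 3.67 in the knee and 0.08 in the node, and Lifr, the receptor of leukemia inhibitory factor, −2.20 and −0.12. Of 26 genes of adhesion and trafficking 19 had a higher and 5 a lower knee effect; Ccr1, a chemokine receptor of myeloid cells, had 2.75 and −0.09, and Vcam1, an adhesion molecule of vessels and lining cells, −1.16 and 0.05.

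Genes of the synovial lining, of cartilage and of complement were lower more often than higher. The shares of all genes were 23.8% for a higher and 21.4% for a lower knee effect than node effect. Of 27 genes of the synovial lining and its fibroblasts 5 had a higher and 17 a lower knee effect than node effect. Has2, which makes hyaluronan, had side effects of 2.87 in the knee and 0.09 in the node, whereas Clic5 and Htra4, both used here as markers of the lining, had −2.68 and −0.08, and −2.59 and −0.06. Of 24 cartilage matrix genes 11 had a lower and none a higher knee effect; Cilp, a protein of the middle layer of cartilage, had −2.98 and −0.25. Matrix proteases and their inhibitors went both ways, 17 of 32 higher and 10 lower, with the inhibitors Timp3 and Timp4 at differences of −2.02 ± 0.12 and −2.75 ± 0.16. Complement genes were lower in 12 and higher in 2 of 21; C6, of the membrane attack complex, had −2.27 in the knee and −0.19 in the node (95% interval −0.35 to −0.03).

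No gene was called in both tissues, so leaning the same way could be described only from the size and the interval of the node effect. Among the 2520 probe sets changed at least 2-fold in the knee, 1709 (67.8%) had a node effect of the same sign, 688 of 1203 higher (57.2%) and 1021 of 1317 lower (77.5%); over all probe sets the share was 55.8%. The unadjusted 95% interval of the node effect lay past 0 on the same side for 225 probe sets, 54 higher (4.49% of 1203) and 171 lower (13% of 1317). Of these 225, 184 (81.8%) also met the rule for a joint-limited change, so the 2 classes overlap. On the opposite side the node interval lay past 0 for 46, 32 higher (2.66% of 1203) and 14 lower (1.06% of 1317) in the knee. All 46 were also joint-limited. Over all probe sets such an interval was found for 5.86%, 2.87% higher and 2.99% lower. The rule for leaning was added after the data had been seen, and the counts carry no test. They depended on the fit: without the rat as block they were 43 on the same and 0 on the opposite side. With the rat as random block they were 50 and 0. Both of these fits also pool the variance of knees and nodes, so the part of the pairing cannot be told apart. Without K2 the counts were 138 and 30 and without K5 137 and 29. Without K4 the same-side count was 335, and without K11 the opposite count was 29.

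Ccl2 had the largest node effect of the 10 genes named for leaning upward in both tissues. This chemokine, which draws monocytes, ranged from 12.03 to 12.38 (median 12.12) in bled knees, against 6.80 to 9.80 (median 8.03) in contralateral knees. The nodes ranged from 8.39 to 10.69 (median 9.53) on the bled side, against 8.45 to 9.87 (median 8.85) on the other. The node groups overlapped, and 7 of 11 rats were higher on the bled side. Its node effect was 0.42 (95% interval 0.03 to 0.81), against a knee effect of 3.86, and the difference of 3.44 ± 0.25 was called (limma adjusted p = 2.5e-07). Ier3, an immediate early gene, had side effects of 1.61 in the knee and 0.24 in the node. Cxcl2 had 4.15 and 0.18, Sbno2 1.44 and 0.21, and S1pr3, a receptor for sphingosine phosphate, 1.54 and 0.17. Polr1e, a subunit of RNA polymerase I, had 1.09 and 0.17, with 10 of 11 rats higher in the node of the bled side. Nabp1, Thg1l, Gpr35 and Eif1a completed the 10, with node effects of 0.16 to 0.18. Each of these 10 genes was called higher in the difference, so the lean in the node was smaller than that in the knee.

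Other genes had node effects as large without meeting the rule. Sele and Selp, the selectins by which endothelium catches leukocytes, had node effects of 0.28 (95% interval −0.05 to 0.61) and 0.29 (−0.08 to 0.66), against 1.62 and 2.74 in the knee. Socs3, a brake on cytokine signalling, had a node effect of 0.25 (−0.20 to 0.71), against 2.39 in the knee. Mt2A, a metallothionein, ranged from 13.49 to 13.69 in bled knees, against 11.81 to 13.26 in contralateral knees, near the top of the scale of the array, where changes may be compressed. In the nodes it ranged from 11.09 to 13.53 on the bled side, against 10.79 to 12.79 on the other, and its node effect was 0.36 (95% interval 0.06 to 0.65), against 0.91 in the knee. The difference was 0.55 ± 0.18 (limma adjusted p = 0.03), a call that was lost when any of 6 single rats was left out. A second probe set for Mt2A, which did meet the rule, gave 1.85 in the knee and 0.56 in the node. Mt2A was chosen after its values were seen. The promoter of Mt2A is shown because its gene leaned upward in both tissues; capitals mark the core of the metal response element, TGCACNC or TGCGCNC on either strand, found 4 times in this window and at least once in 24.2% of all windows. It lies at chr19:10838659-10838958 on the minus strand of GRCr8.
Mt2A: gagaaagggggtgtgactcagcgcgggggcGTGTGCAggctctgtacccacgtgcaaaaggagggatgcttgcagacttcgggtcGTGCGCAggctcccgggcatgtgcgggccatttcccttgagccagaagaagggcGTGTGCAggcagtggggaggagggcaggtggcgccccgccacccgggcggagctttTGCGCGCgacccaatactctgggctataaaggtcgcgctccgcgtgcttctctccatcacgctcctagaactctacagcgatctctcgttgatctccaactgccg

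Adipocyte genes were lower in the bled knee and lay mostly below 0 in the node. Of 27 adipocyte genes 26 were called lower in the bled knee, against 24.7% of all genes. In the node 25 had an effect below 0, with a median of −0.21, against 49.6% of all genes below 0. Of the 23 members changed at least 2-fold in the knee, 10 met the rule for a joint-limited change, against 95.2% of all such probe sets, and 9 had a node interval past 0 on the same side. Adipoq, which encodes adiponectin, ranged from 10.37 to 11.81 (median 10.80) in bled knees, against at least 12.46 (median 12.76) in contralateral knees. Node values ran from 7.92 to 10.52 (median 9.70) on the bled side, against 9.75 to 10.65 (median 10.31) on the other. The node groups overlapped, and the rats differed: K10 (−2.29) and K1 (−1.71) were far lower on the bled side, and K9 (0.59), K7 (0.06) and K3 (0.03) were higher. The node effect was −0.57 (95% interval −1.07 to −0.08), against −1.86 in the knee, with a difference of −1.29 ± 0.32 (limma adjusted p = 0.0059). Car3, the carbonic anhydrase of fat and muscle, had −1.98 in the knee and −0.63 in the node, Thrsp, a gene of fat synthesis that is not on the list, −3.17 and −0.56, and Pck1, an enzyme of glyceroneogenesis, −3.28 and −0.48.

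The adipocyte mean of the node, of which Adipoq, Car3 and Pck1 are members, was lower on the bled side in 8 of 11 rats, by 0.83 in K10 and 0.61 in K1, and higher by 0.38 in K9. With this mean as covariate the node effects were −0.10 for Adipoq, −0.16 for Car3 and −0.03 for Pck1, which are part of it. For Thrsp, which is not, the effect was −0.06 (95% interval −0.22 to 0.09). Omd and Sult1a1 had −0.53 and −0.43, against −0.50 and −0.40 without the covariate. Node intervals past 0 on the same side numbered 167, against 225, and on the opposite side 47, against 46. How much fat was taken with each node was not given, and its part in the leans was not tested.

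Collagens and fibrous matrix genes were called lower more often than higher in the bled knee, and lay mostly below 0 in the node. Of 32 collagens and genes of fibrous matrix, 5 were called higher and 17 lower in the bled knee, against 27.1% and 24.7% of all genes. A higher knee effect than node effect was called for 6 and a lower for 11, against 23.8% and 21.4%. In the node 30 of the 32 lay below 0 (median −0.12), against 49.6% of all genes. The list mean in the node was lower on the bled side in 9 of 11 rats. In the knee 8 members changed at least 2-fold, in both directions: Col6a6, a chain of type VI collagen, had side effects of −2.68 in the knee and −0.05 in the node, and Col12a1, a collagen that associates with fibrils, 1.45 and −0.08. The chains of type I collagen changed less. Col1a1, the main chain of type I collagen, ranged from 11.54 to 12.67 (median 12.07) in bled knees, against 11.89 to 12.79 (median 12.39) in contralateral knees. Across the nodes it spanned 9.36 to 10.66 (median 9.66) on the bled side, against 9.68 to 10.51 on the other. Both pairs of groups overlapped, with small shifts of like size: −0.31 in the knee and −0.34 in the node, and a difference of 0.03 (95% interval −0.20 to 0.26; limma adjusted p = 0.89). Col1a2 had −0.47 and −0.33, with a difference of −0.15 (95% interval −0.36 to 0.07). Col3a1 had −0.16 and −0.23, and its knee effect was not called; it was chosen after its values were seen. In all, 2853 probe sets were called in the knee and not in the difference. Of these, 191 (6.69%) had a node interval past 0 on the same side, 95 higher and 96 lower, and none on the opposite side. In the knee 186 of the 191 changed less than 2-fold. An opposite node effect adds to the difference, so leaving out called differences favours the same side. The split is therefore no result about these genes. Lag3, an inhibitory receptor of T cells, was among the 191 by a rule added after the data had been seen. It had 0.24 in the knee and 0.23 in the node (difference 0.01, 95% interval −0.23 to 0.24). So was Cd209e, a lectin of the DC-SIGN family, with 0.32 and 0.31.

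**Figure D4:**
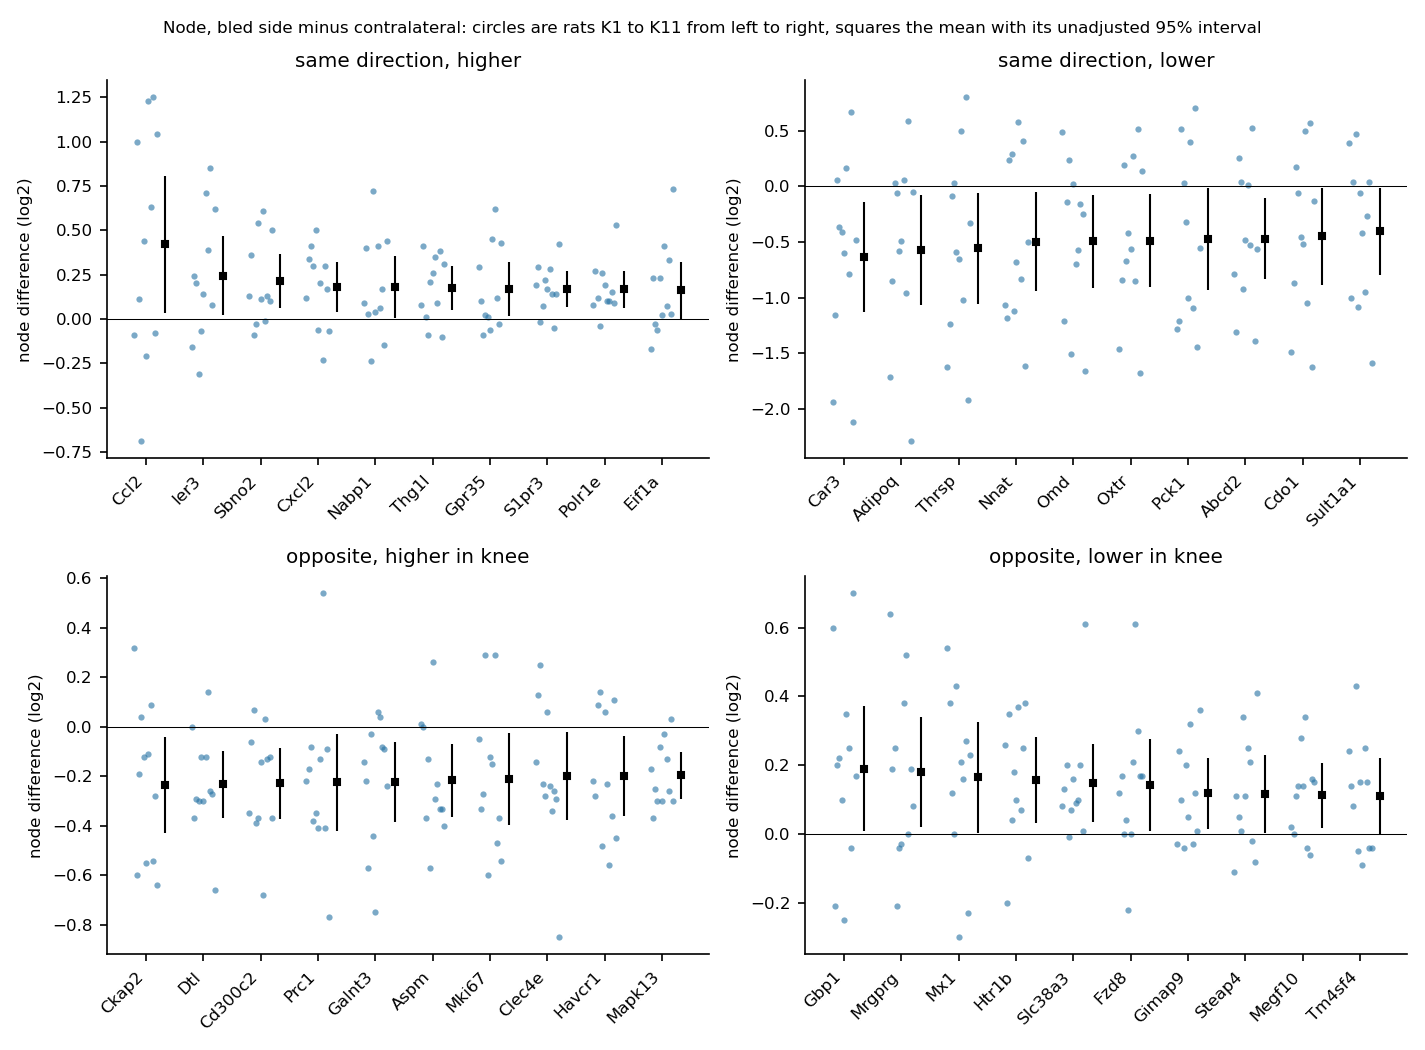
Node difference of each rat (y axis, log2, bled side minus contralateral; rats K1 to K11 from left to right within a gene) for the 10 genes with the largest node effect in each leaning class; squares are means with unadjusted 95% intervals, and the y scales differ between panels. Rats lie on both sides of 0 for every gene shown, and the widest spreads are those of Adipoq (−2.29 to 0.59) and Car3 (−2.12 to 0.67).

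Genes of cell division were higher in the bled knee, with node effects mostly below 0. All 42 measured cell cycle genes were called higher in the bled knee and in the difference, against 27.1% and 23.8% of all genes. Their median was 1.67 in the knee. In the node 35 of the 42 had an effect below 0, against 49.6% of all genes, with a median of −0.09, and none was called. The list mean of the node was below 0 in 8 of 11 rats, lowest in K11 (−0.39), and above 0 in 3. Mki67, a marker of cycling cells, ranged from 8.19 to 10.50 (median 9.76) in bled knees, against 6.03 to 10.16 (median 6.33) in contralateral knees. The nodes ranged from 8.42 to 10.23 (median 8.82) on the bled side, against 8.46 to 10.50 (median 9.18) on the other. The knee groups overlapped through K10, whose bled knee was 0.15 lower, and in the node 9 of 11 rats were lower on the bled side. Its side effects were 2.78 in the knee and −0.21 in the node (95% interval −0.40 to −0.03), and the difference was 2.99 ± 0.35 (limma adjusted p = 1.4e-05), or 3.27 ± 1.0 without K10 (SD, n = 10). Prc1, also on the list, and Dtl, Ckap2 and Aspm, which are not, all of DNA replication or the spindle, had node effects of −0.22 to −0.23 and differences of 1.33 to 2.67. A node interval below 0 beside a higher bled knee was also found for Clec4e and Cd300c2, receptors of myeloid cells, with node effects of −0.20 and −0.23, and for Mapk13, Galnt3 and Havcr1.

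Interferon-stimulated genes were mostly lower in the bled knee, with node effects mostly above 0. Of 44 measured, 2 were called higher and 30 lower in the bled knee, with a median of −0.55, against 27.1% and 24.7% of all genes called. In the node 33 had an effect above 0, with a median of 0.05 and no call, against 50.4% of all genes above 0. The list mean of the node was above 0 in 7 rats and below 0 in 3. Mx1, an antiviral GTPase, ranged from 6.31 to 8.62 (median 7.39) in bled knees, against 7.19 to 9.75 (median 8.96) in contralateral knees. In the nodes it ranged from 9.66 to 10.86 (median 10.50) on the bled side, against 9.66 to 10.86 (median 10.14) on the other. Both pairs of groups overlapped; every bled knee was lower than its partner, and 8 of 11 nodes were higher on the bled side. The side effects were −1.31 and 0.16 (95% interval 0.00 to 0.33), and the difference was −1.47 ± 0.22 (limma adjusted p = 0.0001). Gbp1, a guanylate-binding protein, had −1.26 and 0.19, and Irf7, the regulator of the type I interferon loop, −1.42 and 0.12 (95% interval −0.10 to 0.34). Slfn4 differed from its list, with 0.98 in the knee and 0.24 in the node.

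The promoters of Mki67 and Irf7 are shown for these 2 lists. Capitals mark TTTGAA in Mki67, the letters of the cell cycle homology region, and a pair of GAAA with 2 bases between them in Irf7, those of the interferon response element, on either strand. The first was found in 14 of 36 cell cycle genes with a window (38.9%) and in 18.3% of all windows, the second in 24 of 36 interferon-stimulated genes (66.7%) and in 3.92% of all windows. Mki67 lies at chr1:199952544-199952843 and Irf7 at chr1:205799974-205800273, both on the minus strand of GRCr8.
Mki67: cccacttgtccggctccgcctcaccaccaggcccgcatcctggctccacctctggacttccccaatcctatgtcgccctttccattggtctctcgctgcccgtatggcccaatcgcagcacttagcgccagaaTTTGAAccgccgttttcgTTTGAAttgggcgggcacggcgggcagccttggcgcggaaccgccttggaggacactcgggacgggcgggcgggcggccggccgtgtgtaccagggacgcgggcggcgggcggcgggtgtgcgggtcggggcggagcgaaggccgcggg
Irf7: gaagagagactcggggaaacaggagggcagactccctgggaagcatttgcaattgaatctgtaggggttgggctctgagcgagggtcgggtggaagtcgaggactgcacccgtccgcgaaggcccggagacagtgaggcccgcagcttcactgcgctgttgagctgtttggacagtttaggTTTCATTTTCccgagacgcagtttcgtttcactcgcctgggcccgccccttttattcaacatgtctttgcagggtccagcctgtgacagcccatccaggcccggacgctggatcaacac

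Genes of protein turnover and ribosome assembly were higher in the bled knee. All 31 proteasome genes and all 26 nucleolar genes were called higher in the bled knee and in the difference, against 27.1% and 23.8% of all genes. Their knee medians were 0.58 and 0.87. In the node 28 of 31 and 25 of 26 had an effect above 0, against 50.4% of all genes. The node medians were 0.05 and 0.07, and none was called. Each of the list means of the node was above 0 in 7 rats and below 0 in 3. Gar1, a protein of small nucleolar particles, had 1.36 in the knee and 0.00 in the node, and Psmd14, a deubiquitinase of the proteasome, 1.04 and 0.04. Members of a list share the arrays of the same 11 rats, and the nucleolar list mean of the node was highest in K11 (0.30) and lowest in K4 (−0.16).

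The rats differed in how far the node followed the knee. Over the 2520 probe sets, the slope of a rat's node differences on the mean knee effect of the other 10 rats ran from −0.037 in K4 to 0.086 in K5, with a median of 0.019 and 9 of 11 rats above 0. K5, K2 and K11 had slopes of 0.079 to 0.086, and the next rat, K8, 0.039. The same slope for a rat's own knees ran from 0.647 in K10 to 1.161 in K5. K5 thus had the steepest slope in both tissues. Over the probe sets higher in the bled knee the node slope had a median of 0.011 and a highest value of 0.046, with 7 of 11 rats above 0. Over those lower in the bled knee the median was 0.03 and the highest value 0.135, with 9 of 11 above 0. These slopes are a description over probe sets that share arrays.

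**Figure D5:**
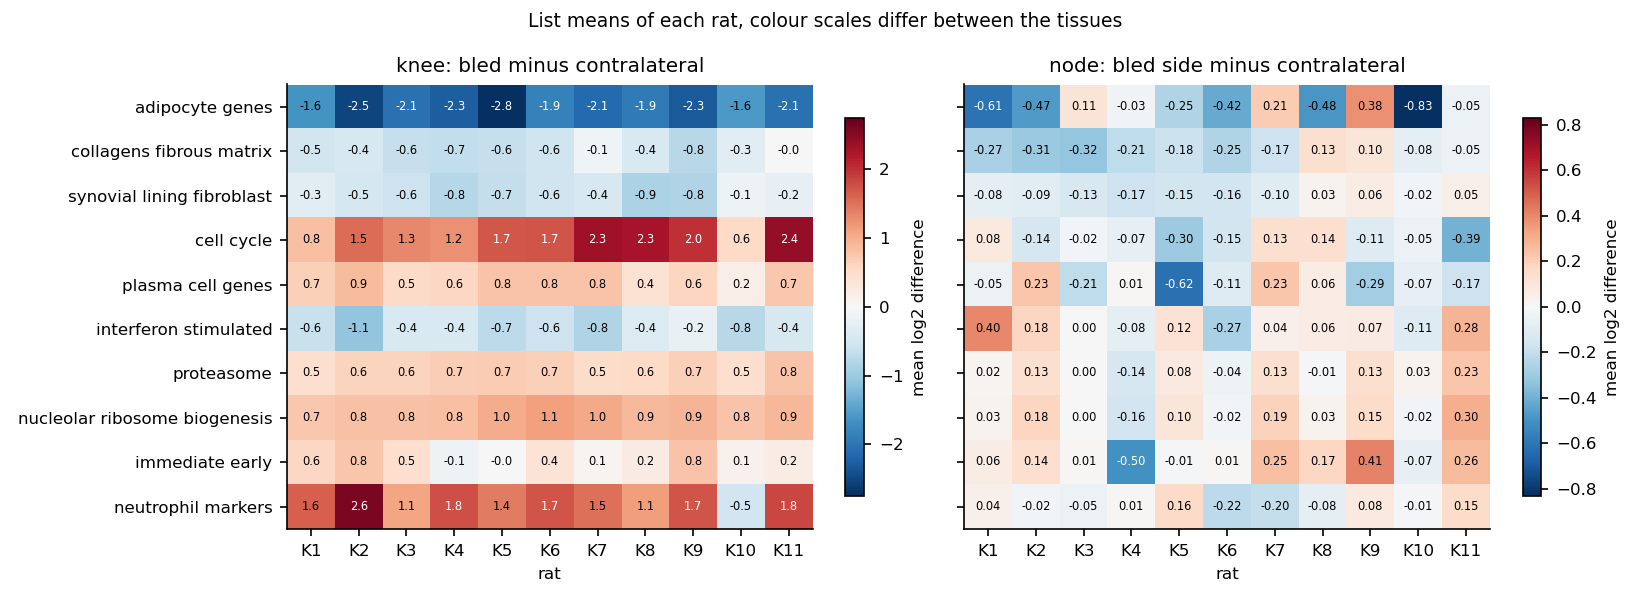
Mean log2 difference of 10 gene lists in each rat, in the knee (left panel, bled minus contralateral) and in the node (right panel, bled side minus contralateral), with a colour scale per tissue. Node rows change colour between rats, as for adipocyte genes (−0.83 in K10, 0.38 in K9) and immediate early genes (−0.50 in K4, 0.41 in K9).

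Muscle in the knee samples varied between rats. Of 25 skeletal muscle genes 7 were called lower in the bled knee and 4 in the difference, near the shares of all genes, 24.7% and 21.4%. None was called higher in either, against 27.1% and 23.8% of all genes. The list medians were −1.89 in the knee and −1.81 in the difference, so few calls do not mean small changes. The knee list mean ran from −4.93 in K7 to 3.26 in K2. The 8 genes with 1 symbol that changed at least 2-fold in the knee without a called difference were Ampd1, Eef1a2, Fhl1, Mylk2, Mypn, Pvalb, Smyd1 and Tnnt3, all known from muscle. Their limma adjusted p lay from 0.054 to 0.074, and their knee effects lay from −1.03 to −2.05. None of 14 erythroid markers was called in any comparison, and Hba-a1, a chain of haemoglobin, had −0.39 ± 0.25 in the knee and −0.12 in the node. Of 17 circadian clock genes 11 were called lower and 3 higher in the difference, against 21.4% and 23.8% of all genes. Nr1d1, a repressor of the clock, had −1.89 in the knee and −0.18 in the node (95% interval −0.35 to −0.01).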

How the data were processed

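RNA of intra-articular knee tissue and popliteal lymph node was measured on Affymetrix rat arrays. The deposited values are on a log2 scale; per the submitters' processing notes they were made with RMA in Affymetrix Expression Console 1.4.46. For RMA options, hybridization batches and scan dates, the sources used here give nothing. Values ran from 1.62 to 14.03, no 2 arrays were identical, and unused sample columns numbered 0. No paper was used.

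Of 36685 probe sets, 18511 had 1 gene symbol in the platform annotation, 575 several and 17599 none listed here; only those with 1 symbol are named. Lists and gene levels use the probe set with the highest mean over the 44 arrays. Differences within a rat were tested against 0 with limma 3.58.1 (lmFit and eBayes, intercept only) in R 4.3.3, over all probe sets, with Benjamini-Hochberg adjustment; ± is the standard error unless given as SD. Intervals are unadjusted at 95% and are for the mean effect over these 11 rats, not for the range of single rats. Each value comes from 1 array, whose number limits precision, and folds of dim probe sets may be compressed. The code was tested on simulated data. Pairing comes from the rat numbers in the labels: deviations of the 2 knees of a rat correlated at −0.1 to 0.21 and those of its 2 nodes at 0.12 to 0.32, and the rat was kept as block because both samples came from 1 animal.

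Genes named were the 12 with the largest called difference each way, 8 joint-limited each way, up to 4 members of each of 42 lists by their difference, and 15 given throughout, in each case with at least 1 group averaging above the median over probe sets. Clauses for genes called in the node or in both tissues named none. The 10 genes named in each leaning class and the genes alike in both tissues come from rules added after the data had been seen; Csf3r, Irf7, Mt2A, Prg4 and Col3a1 were picked after their values were seen. Members and lists were chosen with earlier results of these data known. Alternatives were fits without the rat as block, other scalings and filters, covariates, another threshold and bound, and each rat left out. Figures were drawn with matplotlib 3.10.9 in Python 3.11.15.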

Additional observations from a re-analysis of the deposited data

Results flagged for a closer look

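The side effect differed between knee and node, by the test of the difference itself, in 6272 probe sets where the knee value was higher and 5090 where it was lower. Among the named genes, those with a called difference and a node interval past 0 on the side opposite to the knee were singled out. The node part of this choice rests on unadjusted intervals, and no node effect was called. Opposite leans were not more common than such intervals over all probe sets. They made up 2.66% of the 1203 probe sets higher and 1.06% of the 1317 lower in the knee at 2-fold. Over all probe sets 2.99% had such an interval below 0 in the node and 2.87% above 0.

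Higher in the bled knee, with a node effect below 0, were Mki67 (difference of side effects 2.99), Clec4e (2.94), Dtl (2.67), Cd300c2 (2.66), Galnt3 (2.00), Ckap2 (1.94), Prc1 (1.93), Mapk13 (1.53), Aspm (1.33) and Havcr1 (1.21). Lower in the bled knee, with a node effect above 0, were Mrgprg (−2.23), Htr1b (−1.54), Megf10 (−1.50), Mx1 (−1.47), Gbp1 (−1.45), Gimap9 (−1.28), Tm4sf4 (−1.26), Slc38a3 (−1.19), Steap4 (−1.18) and Fzd8 (−1.15).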

How the results depend on the processing

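Of the 226 named genes with a called difference of side effects, none changed sign in that difference under any alternative run. Other probe sets were not checked for this. Some node effects, none of them called, changed sign with the adipocyte genes of the node as covariate, such as Lep (0.16, against −0.34 without it). Lep is itself on the list behind that covariate, so its change of sign says little. Leaving out 1 rat at a time gave 13019 to 13612 calls in the knee, 0 to 2 in the node, 10736 to 11231 in the difference and 2290 to 2483 joint-limited probe sets; calls in both tissues, in the same or in opposite directions, stayed at 0 to 0. The 2 node calls came without K4 and had no single gene symbol. Node intervals past 0 on the same side as the knee numbered 137 (without K5) to 335 (without K4), and on the opposite side 29 to 53. With no replicate block they numbered 43 and 0 over the 44 arrays and 30 and 0 over all 60 arrays, and with the rat as random block 50 and 0; with the muscle genes of the knee as covariate the opposite count was 28. With no replicate block the other counts were 14688 in the knee, 0 in the node (959 at unadjusted p under 0.05), 11303 in the difference and 2078 joint-limited, of which 2075 were shared with the paired fit. Of the values for single genes in the difference, 3104 kept their side of the threshold and 47, in 15 genes, lost the call; for Mt2A this happened without K3, K4, K6, K7, K8 or K10. The causes were not tested. With dim probe sets left out the node still had 0 calls.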
